A study of Mus musculus with 8 samples.

Results

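The 8 genes described here encode enzymes that make amino acids outside the serine pathway: Asns for asparagine, Aldh18a1 and Pycr1 for proline, Glul for glutamine, Got1 for aspartate, Gpt2 for alanine, and Cbs and Cth for cysteine. They were chosen by name from 20189 genes measured in 4T1 cells, with the difference between acetate and vehicle in these same libraries already known. Their values in that comparison are therefore given as a description, and nothing is concluded from the test results printed for them. 4T1 is a mouse mammary carcinoma cell line, labelled wild type. Cultures received 5 mM acetate or its water vehicle for 48 hours before polyadenylated RNA was sequenced. Each arm had 4 libraries, and libraries with the same number share a code in their labels, which made 4 pairs. Cells of every library were grown in DMEM with fetal bovine serum, Hepes and antibiotics. In a bulk sample, fewer cells that express a gene and less RNA per cell cannot be told apart.

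Mammalian cells build these amino acids from glucose and from intermediates of the tricarboxylic acid cycle. Glutamate is the main nitrogen donor: aminotransferases pass its amino group on to aspartate and alanine, its carbon chain is reduced to proline, and glutamine synthetase adds ammonia to it. Cysteine takes its sulfur from methionine through homocysteine and cystathionine. When amino acids run short, or when the endoplasmic reticulum or mitochondria are under stress, the transcription factor Atf4 is translated more and binds composite C/EBP-ATF elements near many genes of this kind, of which Asns is a classic example.

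Reads recovered from the deposited values ran from 19895088 to 29305620 per library. The epithelial markers Epcam, Krt8, Krt18 and Cdh1 summed to between 40577 and 54867 normalised reads per library, on a common total of 20000000, and of these Cdh1 rose by 0.15 on the log2 scale (adjusted p = 0.00592 in limma with the replicate number as a block). The 6 markers of leukocytes, endothelium and fibroblasts summed to between 81.6 and 229, of which most was the macrophage marker Cd68, while Ptprc, Pecam1 and Cdh5 had means below 4 in each group. Of these 6, Pdgfrb, a marker of pericytes and fibroblasts, passed the same test and was higher in acetate: its group means were 10.1 ± 8.76 and 23.3 ± 13.8 (SD, n = 4, adjusted p = 0.0119 in blocked limma). Both calls were lost without pair 2 or pair 3. The part of either gene in the results below was not tested.

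Promoters of 7 of the 8 genes were matched by symbol in RefSeq (GRCm38.p6), as the 250 bases before and 50 after each start. The promoters were searched on both strands for TGATGNAA, a C/EBP-ATF element. It was found in the promoters of 3 genes, Asns, Pycr1 and Got1, and in 3.97% of 32851 promoters of the same length. Among 10233 promoters of genes with a mean above the median, or of the 8, the share was 2.03%. Aldh18a1, Glul, Gpt2 and Cbs had no match in this window, which says only that these letters are not in it. The letters TGACNNNGC, the core of an antioxidant response element, were found in 1 gene, Asns, beginning 172 bases before the start on the reverse strand. They were in 12.4% of all promoters and in 14.3% of the 10233. The 3 promoters with a C/EBP-ATF match are shown because they let the element be read in its place. They run 5′ to 3′ on the strand of the gene, and capitals mark the match.
Asns, chr6:7693160-7693459, minus strand: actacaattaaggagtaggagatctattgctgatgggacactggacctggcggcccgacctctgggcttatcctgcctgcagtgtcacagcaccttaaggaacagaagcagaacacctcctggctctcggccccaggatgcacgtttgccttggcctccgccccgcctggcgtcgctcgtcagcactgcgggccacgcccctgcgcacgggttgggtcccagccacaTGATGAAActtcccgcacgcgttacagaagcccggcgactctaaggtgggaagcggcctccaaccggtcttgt
Pycr1, chr11:120643699-120643998, minus strand: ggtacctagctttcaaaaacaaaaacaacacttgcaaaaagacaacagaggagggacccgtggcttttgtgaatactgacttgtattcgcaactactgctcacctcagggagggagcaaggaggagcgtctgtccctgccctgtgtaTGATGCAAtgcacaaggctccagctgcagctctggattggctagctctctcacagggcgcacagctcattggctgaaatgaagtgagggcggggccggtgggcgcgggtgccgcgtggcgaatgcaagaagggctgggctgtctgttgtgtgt
Got1, chr19:43524556-43524855, minus strand: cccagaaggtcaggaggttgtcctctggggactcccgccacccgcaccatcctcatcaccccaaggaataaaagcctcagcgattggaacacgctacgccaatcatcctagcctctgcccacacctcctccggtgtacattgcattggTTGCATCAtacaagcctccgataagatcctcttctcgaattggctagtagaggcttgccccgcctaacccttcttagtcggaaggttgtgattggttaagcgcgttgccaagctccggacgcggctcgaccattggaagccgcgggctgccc
The match began 23 bases before the start in Asns and 103 before it in Pycr1, both in the direction of the gene, and 102 before it in Got1, on the opposite strand.

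Across the 8 enzymes, 6 had a lower mean in acetate and 2 a higher one. Asns, Pycr1, Aldh18a1, Gpt2 and Got1 were lower in 4 of 4 pairs, as were 11.4% of all genes, and Glul and Cbs were higher in 4 of 4, as were 16.7%. Cth was lower in 3 of 4. The median log2 change of the 8 was -0.25, and that of all genes was 0.02. In each of the 8 the vehicle and acetate libraries overlapped when pairing was set aside, whereas 1.65% of all genes had groups that did not. Without the replicate block limma called 0 of 20189 genes at an adjusted p of 0.05 (0%) and so 0 of the 8, edgeR called 0 and DESeq2 7. In limma 353 genes had an unadjusted p under 0.05, and 0 of these were among the 8. With the block 4 passed as lower (Asns, Pycr1, Aldh18a1 and Gpt2), against 2.65% of all genes, and 1 as higher (Glul), against 5.99%. Nothing is read from these counts, since the genes were selected on this contrast. The count of 5 became 6 without pair 1, where Cth was added and 8.23% of all genes were called. It became 2 (Asns and Glul) without pair 2, with 3.06% of all genes called, and without pair 4, with 2.67%, and 1 (Asns) without pair 3, with 2.03%.

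**Figure D1:**
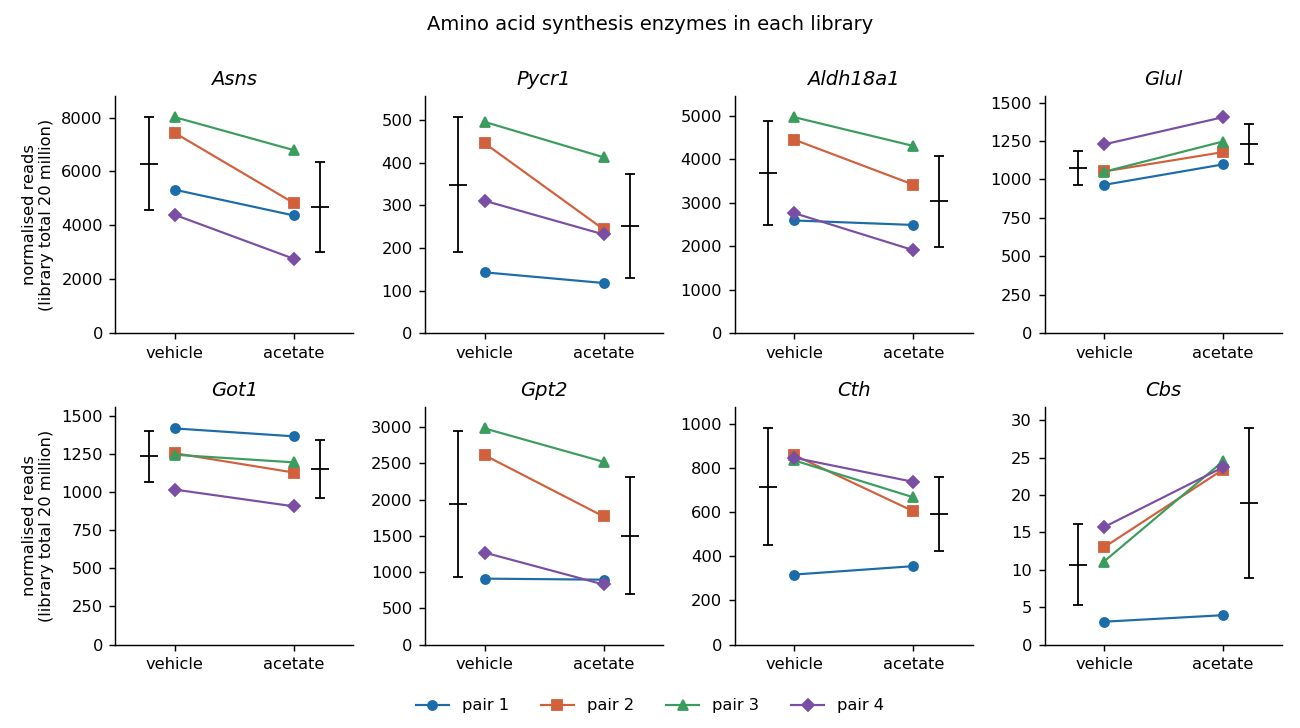
Normalised reads (library total 20000000, linear axes from 0) of the 8 enzymes in each library, with a line joining the vehicle and acetate library of a pair and bars beside them for the group mean ± SD (n = 4). All 4 lines of Asns, Pycr1, Aldh18a1, Got1 and Gpt2 slope down and all 4 of Glul and Cbs slope up, with Cbs at 24.5 normalised reads or below.

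Asparagine is made by Asns, asparagine synthetase, which moves nitrogen from glutamine to aspartate. Asns (ENSMUSG00000029752, chromosome 6, 7675169 to 7693254, minus strand) was the most abundant of the 8. In vehicle libraries 1 to 4 it had 5322, 7427, 8012 and 4391 normalised reads. In acetate libraries 1 to 4 it had 4368, 4827, 6790 and 2761. The highest acetate library thus lay above 2 of the vehicle libraries, and each acetate library lay below its own partner. The group means were 6288 ± 1713 and 4687 ± 1659 (SD, n = 4), and the log2 change was -0.45 ± 0.06 (SE in limma with the block; 0.29 without it), or 0.73 times the vehicle level. The log2 change was -0.28 and -0.24 in pairs 1 and 3, and -0.62 and -0.67 in pairs 2 and 4. On the other side of this branch, the asparaginase Asrgl1 was at 286 ± 28.5 in vehicle and 324 ± 20.1 in acetate and did not pass (log2 change 0.18, adjusted p = 0.117 in blocked limma). Aspg, a further asparaginase, was at 0.593 ± 0.7 in vehicle and 3.38 ± 2.64 in acetate, from 0 to 2 and 1 to 7 reads per library. It was higher in 4 of 4 pairs and did not pass (adjusted p = 0.102 in blocked limma).

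Proline is made from glutamate by Aldh18a1, which forms pyrroline-5-carboxylate, and by pyrroline-5-carboxylate reductases such as Pycr1, which complete the step to proline. Aldh18a1 (ENSMUSG00000025007, chromosome 19, 40550257 to 40588463, minus strand) had 2596, 4455, 4972 and 2765 normalised reads in vehicle libraries 1 to 4 and 2493, 3421, 4311 and 1913 in the acetate libraries. Its log2 change was -0.29 ± 0.06, or 0.82 times the vehicle level, and that of the single pairs ran from -0.06 in pair 1 to -0.53 in pair 4. Pycr1 (ENSMUSG00000025140, chromosome 11, 120635712 to 120643769, minus strand), the mitochondrial reductase, had 143, 446, 496 and 311 in vehicle and 118, 244, 413 and 232 in acetate. Its log2 change was -0.46 ± 0.09, and pair 2 moved most, by -0.87. Both steps were therefore lower in every acetate library than in its partner, and pair 1 started from the lowest vehicle level of either gene. Pycr3, a cytosolic reductase, was at 478 ± 102 and 489 ± 130 and did not pass (log2 change 0.02, adjusted p = 0.905 in blocked limma).

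Around proline, Oat, which interconverts ornithine and pyrroline-5-carboxylate, did not pass (2423 ± 156 and 2510 ± 94.8, adjusted p = 0.334 in blocked limma). Prodh, the mitochondrial enzyme that starts proline breakdown, fell by 0.31 on the log2 scale (383 ± 154 and 321 ± 162, adjusted p = 0.0147). Without pair 2, pair 3 or pair 4 Prodh did not pass. Arg2, a mitochondrial arginase that yields ornithine, rose by 0.50 (141 ± 84.7 and 196 ± 122, adjusted p = 0.00495). It did not pass without pair 4.

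Glutamine is made by Glul, glutamine synthetase. Together with Cbs it was one of the genes with more reads in acetate. Glul (ENSMUSG00000026473, chromosome 1, 153899944 to 153909723, plus strand) had 965, 1052, 1050 and 1228 normalised reads in vehicle libraries 1 to 4 and 1098, 1178, 1247 and 1405 in acetate libraries. The changes of the 4 pairs, 0.19, 0.16, 0.25 and 0.19, were the most even of the 8 genes, with a mean log2 change of 0.20 ± 0.03, or 1.15 times the vehicle level. A stretch of 183 exonic bases is shared with Teddm2 on the other strand, and that gene had a mean of 2.01 normalised reads, with the use of strand in counting not stated. Gls2, a glutaminase, which runs the opposite reaction, rose by 0.28 (449 ± 121 and 542 ± 131, adjusted p = 0.00802 in blocked limma). Glutamate dehydrogenase, Glud1, did not pass (4671 ± 211 and 4405 ± 179, adjusted p = 0.0670), but passed with median-of-ratios scaling (adjusted p = 0.0308). The call of Gls2 was lost without pair 2, 3 or 4.

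Aspartate and alanine arise by transfer of the amino group of glutamate. Got1 (ENSMUSG00000025190, chromosome 19, 43499752 to 43524605, minus strand), the cytosolic aspartate aminotransferase, had 1420, 1257, 1247 and 1018 normalised reads in vehicle and 1368, 1130, 1197 and 908 in acetate. Each acetate library lay below its partner by a small amount, with a log2 change of -0.11 ± 0.04. Gpt2 (ENSMUSG00000031700, chromosome 8, 85492576 to 85527560, plus strand), the mitochondrial alanine aminotransferase, had 909, 2612, 2981 and 1268 in vehicle and 894, 1767, 2520 and 828 in acetate. Its log2 change was -0.36 ± 0.08, made of -0.56, -0.24 and -0.61 in pairs 2 to 4 and almost no difference in pair 1 (-0.02). The isozymes in the other compartment were at different levels. Got2, the mitochondrial aspartate aminotransferase, was at 6285 ± 898 and 6652 ± 912 normalised reads and did not pass (log2 change 0.08, adjusted p = 0.0954 in blocked limma). Per kilobase, Got1 made up 27.2% ± 2.21 of the sum of both isozymes in the vehicle group and 24.7% ± 1.7 of it with acetate (SD, n = 4), and that share was smaller with acetate in 4 of 4 pairs. Gpt, the cytosolic alanine aminotransferase, was at 86.4 ± 15.9 and 93.6 ± 10.6 normalised reads, and Gpt2 made up 91.0% ± 3.22 of their sum per kilobase in vehicle and 87.6% ± 4.9 in acetate. Among the enzymes that use aspartate, Asl, which splits argininosuccinate, rose by 0.17 (1003 ± 146 and 1120 ± 116, adjusted p = 0.0205), and Ass1, which forms argininosuccinate, did not pass (adjusted p = 0.499). The call of Asl was lost in each of the 4 fits that left out a pair.

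Cysteine is made by transsulfuration, in which Cbs joins homocysteine to serine and Cth splits the cystathionine formed. Cth (ENSMUSG00000028179, chromosome 3, 157894248 to 157925077, minus strand) had 317, 858, 834 and 846 normalised reads in vehicle libraries 1 to 4 and 355, 604, 667 and 737 in acetate. Pair 1 stood apart, with the lowest levels in both groups and a change of 0.16, where pairs 2 to 4 changed by -0.51, -0.32 and -0.20. The mean log2 change was -0.22 ± 0.08. Cbs (ENSMUSG00000024039, chromosome 17, 31608894 to 31637238, minus strand) was close to the limit of measurement: it had 3.05, 13.0, 11.1 and 15.7 normalised reads in vehicle and 3.92, 23.4, 24.5 and 23.7 in acetate. These correspond to between 4 and 23 reads per vehicle library and between 5 and 33 per acetate library, so counting error is large. Its log2 change of 0.68 ± 0.25 had the largest SE of the 8, and the single pairs ran from 0.28 to 1.08.

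Upstream of transsulfuration, Mtr, methionine synthase, which returns homocysteine to methionine, fell by 0.17 on the log2 scale (766 ± 109 and 679 ± 68.3, adjusted p = 0.0283 in blocked limma). The call was lost without pair 1, 2 or 3. Mat2a, which makes S-adenosylmethionine, was at 5157 ± 1718 and 5153 ± 1625 and changed by 0.00 (adjusted p = 0.958), and Ahcy, which releases homocysteine, changed by 0.05 (adjusted p = 0.415).

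**Figure D2:**
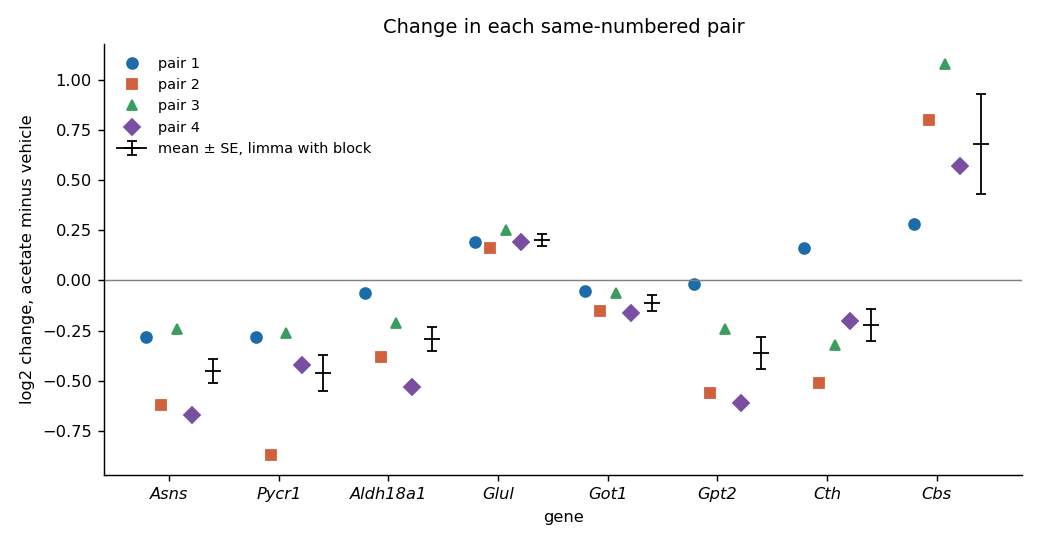
Log2 change (acetate minus vehicle, on log2 of the normalised value plus 1) of each enzyme in the 4 pairs, with the mean ± SE of limma with the replicate block in black. Pairs 2 and 4 lie below pairs 1 and 3 for Asns, Pycr1, Aldh18a1, Gpt2 and Got1, the 4 points of Glul lie within 0.16 and 0.25, and those of Cbs spread from 0.28 to 1.08.

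Pairs 2 and 4 had the 2 lowest log2 changes in each of Asns, Pycr1, Aldh18a1, Gpt2 and Got1. Pair 1 had the change closest to 0 in Aldh18a1, Gpt2 and Got1. The median over the 8 genes was -0.04, -0.44, -0.22 and -0.31 in pairs 1 to 4, where that of all genes lay between 0.00 and 0.03. With 1 library per treatment in each pair, whether the response differed between pairs was not tested.

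Levels can be compared between genes only per length. Per kilobase of annotated exon and in vehicle, Asns had 2299 ± 626 normalised reads, Aldh18a1 908 ± 293, Got1 487 ± 65.1, Gpt2 344 ± 179, Glul 323 ± 33.3, Cth 256 ± 94.8, Pycr1 88.7 ± 40.2 and Cbs 1.43 ± 0.728 (SD, n = 4). The 4 libraries of Asns lay above those of Aldh18a1, and those of Aldh18a1 above those of Got1. From Got1 through Gpt2, Glul and Cth to Pycr1, each gene overlapped the next in this order. Cbs lay far below the rest, from 0.407 to 2.1. Not divided by length, the mean of Cbs over all libraries was above that of 37.0% of the genes in the table, against 96.9% for Asns. These ranks therefore also depend on gene length.

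**Figure D3:**
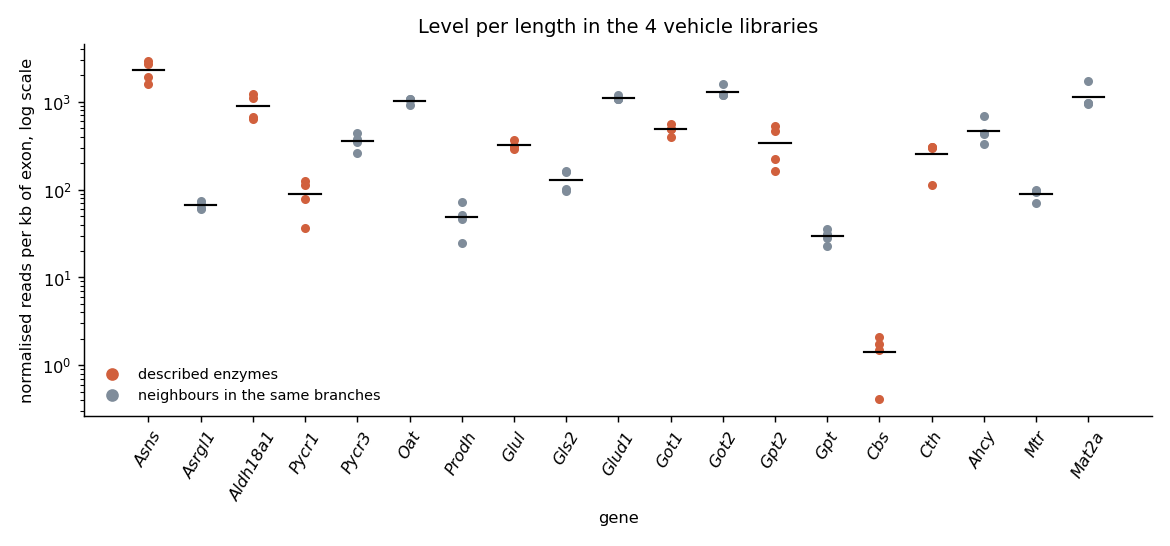
Normalised reads per kilobase of annotated exon (log axis) in the 4 vehicle libraries, with a bar at the mean, for the 8 enzymes (orange) and for neighbours in their branches (grey). Pycr1 lies below Pycr3, Got1 below Got2, Gpt2 above Gpt, and Cbs lowest of those drawn at 1.43 per kilobase.

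How much the enzymes differ between the 4 pairs is a measure that their choice did not use. All 8 differed between replicate numbers past 0.05 in the limma F-test of the replicate terms, as did 58.2% of all genes. Replicate number held between 61.7% (Glul) and 91.2% (Got1) of the variance of log2 values, and treatment between 4.12% (Cth) and 37.4% (Glul). These are shares of the total sum of squares, in which replicate number has 3 terms and treatment 1. The pair means of Cbs differed 5.57-fold between replicate 4 and replicate 1 (adjusted p = 4.48e-04), those of Pycr1 3.49-fold between replicates 3 and 1 (adjusted p = 1.17e-06), and those of Gpt2 3.04-fold between the same replicates (adjusted p = 2.08e-07). Cth was 2.36-fold higher in replicate 4 than in replicate 1 (adjusted p = 4.91e-06). The order of replicates was not shared by all. Replicate 1 was lowest for Pycr1, Gpt2, Cth, Cbs and Glul, and highest for Got1, which was at 1394 in replicate 1 and 962 in replicate 4 (adjusted p = 1.50e-05). For Asns and Aldh18a1 replicate 3 was highest and replicate 4 lowest, 2.12-fold and 2.01-fold apart (adjusted p = 3.17e-06 and 1.31e-06).

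**Figure D4:**
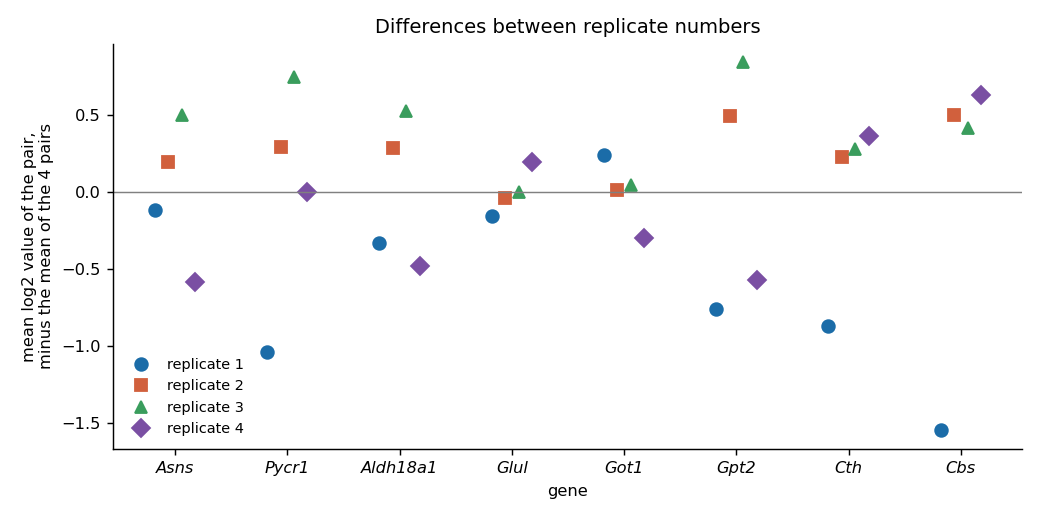
Mean log2 value of each pair minus the mean of the 4 pairs, for the 8 enzymes. Replicate 1 lies lowest for Pycr1, Gpt2, Cth, Cbs and Glul and highest for Got1, and Asns, Aldh18a1, Pycr1 and Gpt2 share replicate 3 as their highest.

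Over the 8 libraries, which form 4 pairs and are not independent, the enzymes fell into more than 1 pattern. Pearson's r was 0.97 between Aldh18a1 and Gpt2, 0.94 between Asns and Aldh18a1, and 0.85 between Asns and Gpt2. Cth went with Pycr1 (0.88) and Cbs (0.78) and hardly with Asns (0.19). These patterns overlapped, since Pycr1 also went with Gpt2 (0.88) and Aldh18a1 (0.77), and Cth with Gpt2 (0.61). Glul and Got1 ran opposite to each other (-0.90). The mean profile of the 8, with each gene centred, was -0.57 and -0.58 in vehicle and acetate replicate 1 and between -0.21 and 0.42 in the other libraries. It therefore mostly describes replicate 1. The 5 genes outside the 8 most like it, of 10087 with a mean above the median, were Rab40c (r = 0.989), Thap2 (0.985), Dxo (0.984), Mitd1 (0.983) and Stab1 (0.978). Their log2 changes with acetate lay between -0.12 and -0.03.

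The wider pathway was described with lists written with earlier results of these libraries known, so their counts are no independent support. Of 18 further enzymes in the same branches 16 were in the table, and 2 rose (Gls2 and Asl), 1 fell (Mtr) and 13 did not pass in blocked limma, where 5.99% of all genes rose and 2.65% fell. The median log2 change of the 16 was 0.03. The median of the same-branch enzymes thus lay beside that of all genes (0.02). Of 11 breakdown and conversion enzymes 10 were in the table, with 1 rise (Arg2) and 1 fall (Prodh). Their median log2 change was 0.25, and 9 of the 10 had a higher mean in acetate, as had 11102 of 20189 genes. Of 5 serine synthesis enzymes 4 fell, in a fit that called 2.65% of all genes as lower: Phgdh by 0.18, Psat1 by 0.26, Psph by 0.46 and Shmt2 by 0.40 (adjusted p = 0.0378, 0.00814, 6.52e-04 and 0.00189 in blocked limma). Psph, the phosphatase of the last step to serine, and Asns thus had changes of like size (-0.46 and -0.45). Whether the lists differ was not tested. Without pair 2 or pair 4 the count for serine synthesis was 2, where 3.06% and 2.67% of all genes were called in either direction, and without pair 3 it was 3, against 2.03%.

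Among 9 regulators of the amino acid response 4 fell, against 2.65% of all genes. Atf4, the factor that binds C/EBP-ATF elements, fell by 0.37 (5120 ± 2051 and 3948 ± 1500, adjusted p = 0.00103 in blocked limma), in 4 of 4 pairs. Its targets Atf5 and Trib3 fell by 0.72 and 0.62 (adjusted p = 0.00714 and 5.20e-04), and its partner Cebpg by 0.15 (adjusted p = 0.0452). Ddit3 (-0.23, adjusted p = 0.250), Nupr1, Cebpb and the kinases Eif2ak4 and Eif2ak3 did not pass. Without pair 2, 3 or 4, the calls left in this list were Atf4 and Trib3.

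Of the 6 cytosolic tRNA synthetases for the same amino acids, 4 fell, again against 2.65% of all genes: Nars for asparagine by 0.30, Eprs for glutamate and proline by 0.20, Aars for alanine by 0.38 and Cars for cysteine by 0.25 (adjusted p = 0.00169, 0.00383, 0.00958 and 0.00671 in blocked limma). Dars for aspartate (-0.04, adjusted p = 0.415) and Qars for glutamine (0.06, adjusted p = 0.267) did not pass. For transporters of these amino acids, 5 of the 6 in the table fell, against the same 2.65%. Slc1a4, a carrier of small neutral amino acids, fell by 0.39 (adjusted p = 6.64e-04), Slc1a5, which carries glutamine, by 0.27 (adjusted p = 0.00148), and Slc38a1, also a glutamine carrier, by 0.16 (adjusted p = 0.00404). The cystine carrier Slc7a11 fell by 0.29 and its partner chain Slc3a2 by 0.23 (adjusted p = 0.00500 and 0.00930). Slc38a2 did not pass (-0.03, adjusted p = 0.689). Without pair 2 or pair 3, 3 and 2 transporters passed, and without any of pairs 2 to 4 taken singly, 2 synthetases did.

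**Figure D5:**
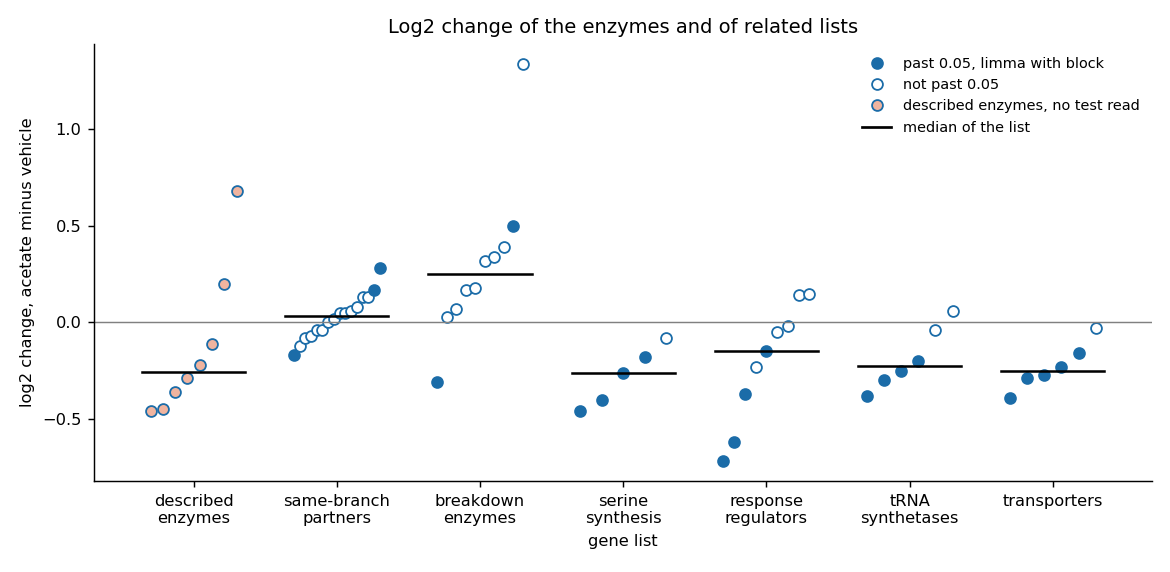
Log2 change (acetate minus vehicle) of each gene in the 8 described enzymes and in 6 related lists, with filled points past an adjusted p of 0.05 in limma with the block, open points not past it, pale points for the described enzymes and a bar at each list's median. The medians of serine synthesis (-0.26), tRNA synthetases (-0.23) and transporters (-0.25) lie near that of the described enzymes (-0.25). Those of response regulators, same-branch partners and breakdown enzymes lie at -0.15, 0.03 and 0.25.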

How the data were processed

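RNA from 4 vehicle and 4 acetate cultures of 4T1 cells was sequenced. Per the methods and labels, the authors prepared stranded libraries, aligned reads to the mouse transcriptome (GRCm38/mm10) and counted them per gene with STAR; the labels also name HTSeq. Use of strand in counting is not given in the sources used here. The deposited signal values are read counts that the authors divided by the library total and scaled to 20000000, for genes seen in at least 4 of the 8 libraries. Values were whole multiples of 1 read (within 0.02 reads) for 100% of values in each library.

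Identifiers were matched to GENCODE M21 (GRCm38): 20004 of 20189 had a symbol. Exon length is the union of annotated exons. log2(value + 1) was fitted over all genes with limma 3.58.1 (R 4.3.3; eBayes with a trend, two-sided, Benjamini-Hochberg), without and with the replicate number as a block. Deviations of same-numbered libraries correlated at 0.81, 0.27, 0.20 and 0.69 in pairs 1 to 4, and same-numbered libraries share a code in the labels, so blocked values are printed. The replicate terms were tested by F-test in the blocked fit. Fold changes on this scale understate those of low genes. edgeR 4.0.16 and DESeq2 1.42.0 on recovered reads were alternatives. The fits were tested on simulated data. The study describes its replicates as independent experiments on 1 cell line. Blocked p-values for acetate set the change against its spread between the pairs, with differences in level between experiments removed. Those without the block set it against the spread between libraries of an arm.

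The 8 genes and all lists were chosen with earlier results of these data known. Named genes were the 8, list genes past 0.05 in either limma fit, otherwise the 2 highest of a list, and the 5 most correlated with the mean profile; others are named as reaction partners in the same branch and were chosen after their values were seen. Some results for partner genes are not reported here.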

Additional observations from a re-analysis of the deposited data

Results flagged for a closer look

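Of 60 groups of 4 libraries tested, from the 8 enzymes and 22 related genes, 5 held a library far from the other 3, where chance flags about 3. The gap given is the distance to the nearest other library over the distance from lowest to highest, and each flagged library was of replicate 1. Cth had 317 normalised reads in vehicle replicate 1 and 834 to 858 in the other vehicle libraries (gap 0.957). Cbs had 3.92 in acetate replicate 1 and 23.4 to 24.5 in the other acetate libraries (gap 0.946). Asl was lowest in replicate 1 in vehicle (786 against 1063 to 1088, gap 0.916) and in acetate (947 against 1162 to 1195, gap 0.867). Slc7a11 was lowest in vehicle replicate 1 (651 against 1501 to 1652, gap 0.849).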

How the results depend on the processing

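The direction of the 8 enzymes was kept under both pseudocounts, the filter on the mean, median-of-ratios scaling, edgeR and DESeq2. Calls depended on pairing. Without the block 0 genes passed in limma under any scaling, pseudocount or filter, in edgeR, and in the 8 fits without 1 library (0 to 0), and DESeq2 called 7 genes, none of the 8 enzymes. With the replicate block limma called 1744 genes (535 lower, 1209 higher) and 5 of the 8 enzymes, 1821 (821 lower, 1000 higher) and 5 with median-of-ratios scaling, which moved the median over all genes by -0.019 on the log2 scale, and 1764 and 5 with a pseudocount of 5. edgeR with the block called 2400 genes and 7 enzymes, with Got1 and Cth added, and DESeq2 with the block 1126 and 4, without Gpt2 and with no adjusted p for Cbs. In the blocked fits that left out 1 pair, and so had fewer libraries, between 409 and 1662 genes and between 1 and 6 enzymes passed: 1662 and 6 without pair 1, 617 and 2 without pair 2, 409 and 1 without pair 3, and 539 and 2 without pair 4. The replicate term passed for all 8 enzymes in every fit, and for 10204 to 11114 genes without 1 library, against 11746. In unblocked fits without 1 library the sign turned in 6 genes: Got1 ranged from -0.20 to 0.00 and Prodh, Phgdh and Slc1a5 from -0.60 to 0.03, -0.34 to 0.01 and -0.60 to 0.08, each turning without acetate replicate 4, and Cth from -0.57 to 0.01 and Slc7a11 from -0.61 to 0.06, without acetate replicate 1. Such a fit keeps the other library of the pair. Cbs had 4 to 33 reads per library, and how much of its spread came from counting error was not tested.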
